A study of Mus musculus with 6 samples.

Results

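The genes described here encode 8 transcription factors of the corticotroph lineage, Tbx19, Neurod1, Pitx1, Lhx3, Lhx4, Pax7, Isl1 and Insm1. They were followed in the AtT-20 line, grown from a mouse pituitary tumour, which makes pro-opiomelanocortin (POMC), the precursor of the stress hormone ACTH. Every probe set that the platform annotation assigns to one of these symbols alone was taken, which gave 16 probe sets, 2 for each gene, of the 45037 on the array that are not controls. One group of 3 cultures was treated for 8 days with repeated 20 nM siRNA against Dnmt1 (siDNMT1), and the other group of 3 with 20 nM non-targeting siRNA (siNT) for the same time. Dnmt1 is the enzyme that copies DNA methylation onto newly made strands, so the comparison asks which transcripts differ in abundance when that enzyme is reduced. Each repeat from 1 to 3 gave 1 array of each group, and per the labels the repeats were carried out independently. All cells are one tumour line, so both groups share its altered genome and none is a normal corticotroph.

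Corticotrophs are the pituitary cells that make POMC. Tbx19, also called Tpit, is a T-box factor restricted to the pituitary lineages that express POMC, and it acts on the Pomc promoter together with Pitx1, a homeodomain factor present from the earliest pituitary stages. Neurod1 is a basic helix-loop-helix factor that binds an E-box of the Pomc promoter in early corticotrophs. Lhx3 and Lhx4 are LIM-homeodomain factors needed for the pituitary pouch to grow, and Isl1 is a LIM-homeodomain factor of the early gland that is later found in other hormone cells. Pax7 opens chromatin for the melanotroph programme, the alternative fate of Tbx19-positive cells. Insm1 is a zinc finger factor that endocrine cells need to differentiate, the pituitary included.

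Signal is given after each array was brought to the same median, in arbitrary units. The signal of one probe set cannot be set against that of another, because each has its own response. A log2 difference is that of the scaled signal plus a pseudocount of 5.29, siDNMT1 minus siNT, and it understates the differences of dim probe sets. Probe sets with a mean scaled signal of at least 16.8 were tested with limma over all 27022 that reached it. The repeats were separate treatments. In the main fit a p sets the mean difference against the spread of the arrays within a group. With the repeat number as a block it sets it against the spread of the differences between paired arrays. In both fits limma draws that spread towards a trend over all tested probe sets. The RNA came from whole cultures, so fewer cells that express a gene and less RNA per cell cannot be told apart.

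Dnmt1 itself was at 39.6%, 20.2% and 48.6% of its paired control on its brightest probe set in repeats 1, 2 and 3. Its scaled signals were 214, 142 and 301 with siDNMT1 against 541, 701 and 619 with siNT, a log2 difference of -1.54 (SE 0.24, n = 3 a group). By limma the adjusted p was 0.151, and it was 0.0211 with the repeat number as a block. Of 8 genes listed as corticotroph markers, not all of them specific to these cells, 6 passed the limit for testing. These were Pomc, Pcsk1, Cpe, Chga, Crhr1 and Gzmk, while Avpr1b and Mc2r lay below it. Of the markers of other hormone lineages 7 of 10 on the array passed it, with summed signals of 311 to 425 with siDNMT1 and 320.4 to 436 with siNT, and Fshb, Cga and Nr5a1 lay below it. Melanotroph markers (3 of 3 on the array passed, with Pax7, itself one of the 8 factors) summed to 91.1 to 123 against 86.1 to 111. Fibroblast markers (5 of 8 passed) summed to 169 to 233 against 152 to 191. Immune markers (5 of 7 passed) summed to 519 to 576 against 526 to 627. Each sum takes in all markers of its list on the array, those below the limit included, and its brightest members weigh most. The limit is a percentile of the signals, so passing it does not show that a gene is expressed. Log2 differences of the fibroblast markers that passed ran from -0.04 (Col1a1) to 1.26 (Pdgfra). Pdgfra and Lum reached the limit through the knockdown alone (means 34.3 and 22.1, against 13.1 and 15.7 with siNT). Among the markers of other lineages Ghrhr did so too (mean 21.9, against 14.3 with siNT). Prl reached it through its controls alone (mean 30.1, against 13.8 with siDNMT1). The ranges of both groups overlapped for all 5 marker lists, and their part in the results was not tested.

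Because Dnmt1 acts on CpG dinucleotides, the CpG content next to the start of the factor genes is given first. RefSeq start sites of mouse assembly GRCm38.p6 were at hand for 6 of the 8 genes, Tbx19, Neurod1, Lhx3, Lhx4, Pax7 and Isl1, and not for Pitx1 and Insm1. In the 250 bases upstream of the start, Tbx19 had 7 CpGs, Neurod1 22, Lhx4 14, Pax7 13 and Isl1 33. Lhx3 has 2 starts in the table, with 11 CpGs before one and 22 before the other. The median of all 32851 such windows was 6, with quartiles of 2 and 16, and Pomc had 15. Tbx19 therefore lay near the middle of the genome's windows, with 53.7% of them holding fewer CpGs, and Isl1 near the top, with 96.0% holding fewer. Methylation of these windows in AtT-20 cells was not measured here. The upstream windows of the factor with the smallest differences (Tbx19), of the one that was lower in most repeats on both probe sets (Neurod1) and of the one with the largest difference (Lhx4) are shown 5′ to 3′, with every CpG in capitals. They lie at chr1:165160774-165161023, chr2:79456637-79456886 and chr1:155742028-155742277 of GRCm38.p6, all on the minus strand.
Tbx19: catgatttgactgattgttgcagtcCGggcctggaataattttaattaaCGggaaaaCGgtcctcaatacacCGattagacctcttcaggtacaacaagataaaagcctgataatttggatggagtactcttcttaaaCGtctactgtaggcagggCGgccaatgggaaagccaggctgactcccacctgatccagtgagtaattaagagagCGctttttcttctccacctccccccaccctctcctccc
Neurod1: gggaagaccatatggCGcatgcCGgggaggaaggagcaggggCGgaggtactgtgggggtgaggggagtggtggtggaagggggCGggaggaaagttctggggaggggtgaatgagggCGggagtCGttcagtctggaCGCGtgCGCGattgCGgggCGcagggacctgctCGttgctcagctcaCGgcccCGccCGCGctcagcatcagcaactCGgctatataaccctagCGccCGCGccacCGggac
Lhx4: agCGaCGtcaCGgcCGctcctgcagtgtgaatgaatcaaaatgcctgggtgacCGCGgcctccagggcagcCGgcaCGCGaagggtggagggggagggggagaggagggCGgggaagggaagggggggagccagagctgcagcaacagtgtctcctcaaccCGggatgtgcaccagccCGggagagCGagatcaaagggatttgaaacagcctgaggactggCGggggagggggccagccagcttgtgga
In the Tbx19 window, with a GC content of 47.6%, 3 of the 7 CpGs lie in the 125 bases nearest the start. In the Neurod1 window, with a GC content of 67.6%, 17 of the 22 lie in the 125 bases nearest the start. For Lhx4 the GC content was 66.0%, and the ratio of observed to expected CpGs was 0.564, against 0.841 for Neurod1 and 0.502 for Tbx19.

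**Figure D1:**
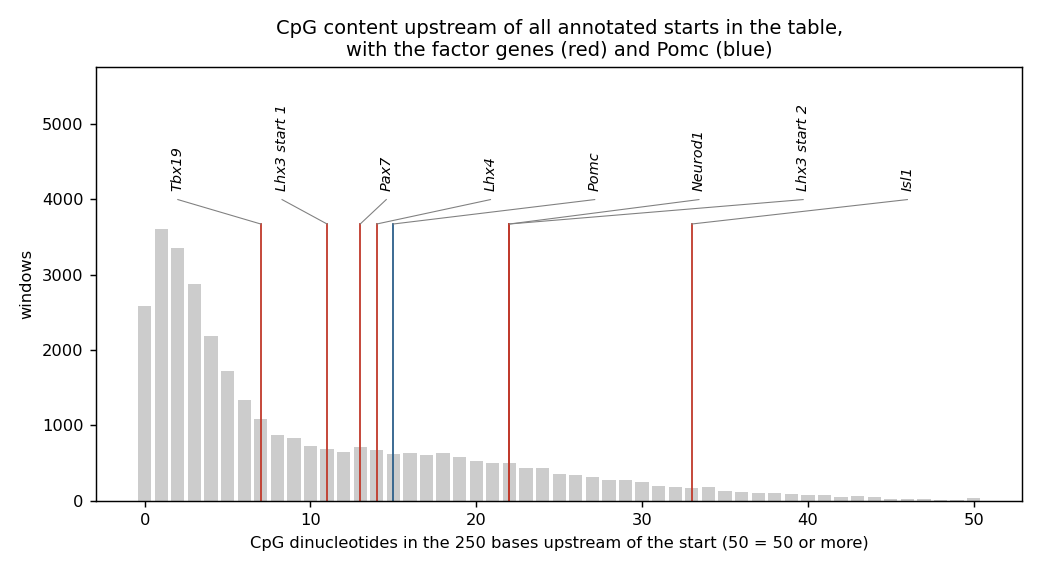
Number of windows (vertical axis) by the count of CpG dinucleotides in the 250 bases upstream of a start site (horizontal axis, 50 standing for 50 or more) for all 32851 windows in the table. Lines mark the windows of the factor genes in red and of Pomc in blue, from Tbx19 with 7 CpGs to Isl1 with 33.

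Short letter strings that factors of these classes are known to bind were counted in the same windows, on both strands. TAATCC, the core of sites for Pitx-type homeodomains, was found once upstream of Isl1 and in none of the windows of the other 5 genes or of Pomc, and 6.25% of all windows hold it. CATATG, an E-box form that reads the same on both strands, was found once upstream of Neurod1, with 3.46% of all windows holding it. TCACACC, a sequence that T-box factors bind, was in no window of these genes, and 3.33% of all windows hold it. These matches are descriptions of the windows, and no binding was measured. Sites further upstream than 250 bases, and other spellings of a site, were not searched. A missing match, for Pomc as for the factor genes, therefore does not show that a promoter lacks such a site.

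None of the 12 tested probe sets of the factor genes passed the threshold, in the fit without the block or with it. Over all tested probe sets limma called 0% without the block (0 of 27022, with 1025 at an unadjusted p under 0.05) and 0.0851% with it. The 12 tested probe sets stand for 7 genes, since neither probe set of Isl1 reached the limit, nor did the dimmer one of Lhx4 or of Pax7. An unadjusted p under 0.05 was reached by 2 of the 12 without the block, beside 3.79% of all probe sets. Of these 1 was higher (Insm1) and 1 lower (Lhx4), beside 1.32% and 2.47% of all. With the block it was reached by 3 of the 12, beside 7.83%, of which 2 were higher (both Insm1 probe sets) and 1 lower (Lhx4), beside 2.45% and 5.39%. In 5 of the 12 the difference had one direction in all 3 repeats, beside 29.3% of all probe sets, 3 of them higher and 2 lower, beside 10.1% and 19.2%. In 3 of the 12 the groups did not overlap, beside 8.74% of all, with siDNMT1 above in 1 and below in 2, beside 2.96% and 5.78%. Of the 12, 7 had higher and 5 lower values with siDNMT1. Their median difference was 0.04, against -0.06 over all tested probe sets, and it was -0.13 without siDNMT1 array 3 and -0.07 without siNT array 1. By gene, on the brightest probe set, 4 of 7 were higher and 3 lower, beside 61.0% lower over all genes tested. Probe sets of one gene read the same RNA and are not independent. Of the 12, 3 reached the limit through one group alone, Lhx4 through the controls and both of Lhx3 through the knockdown, so these counts are a description. Of the 9 others 1 had an unadjusted p under 0.05 without the block and 2 with it, both of Insm1 in the latter case, and 2 had groups that did not overlap.

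**Figure D2:**
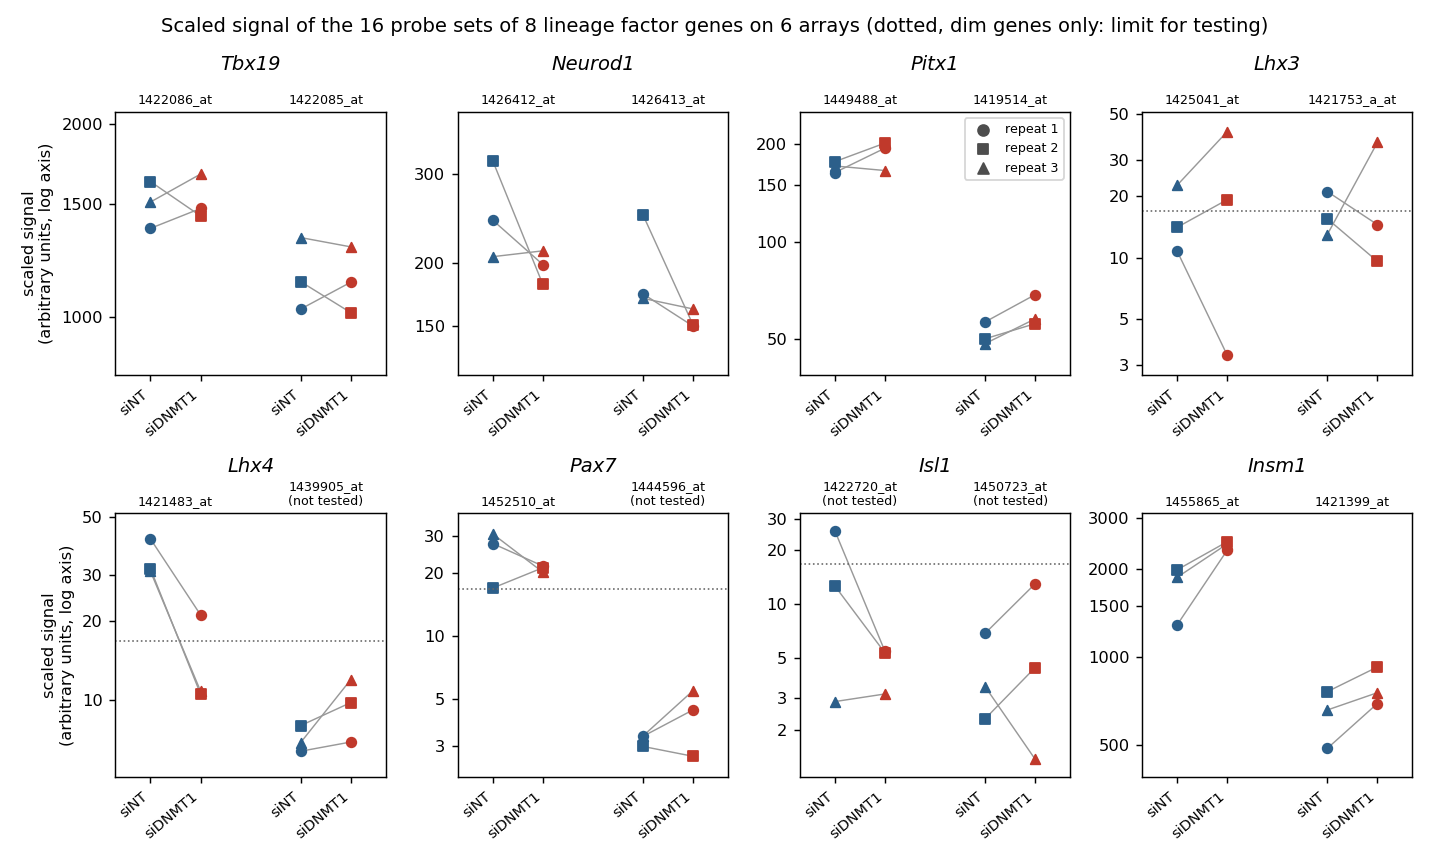
Scaled signal on a log axis (arbitrary units) of the 16 probe sets on the 6 arrays, siNT in blue and siDNMT1 in red, with a grey line joining the arrays of a repeat. The dotted line is the limit for testing, 16.8, drawn where it falls near the data. All siDNMT1 points of the brighter Insm1 probe set lie above all siNT points, those of the brighter Lhx4 probe set and of Neurod1 1426413_at lie below, and the groups overlap in the 13 others.

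**Figure D3:**
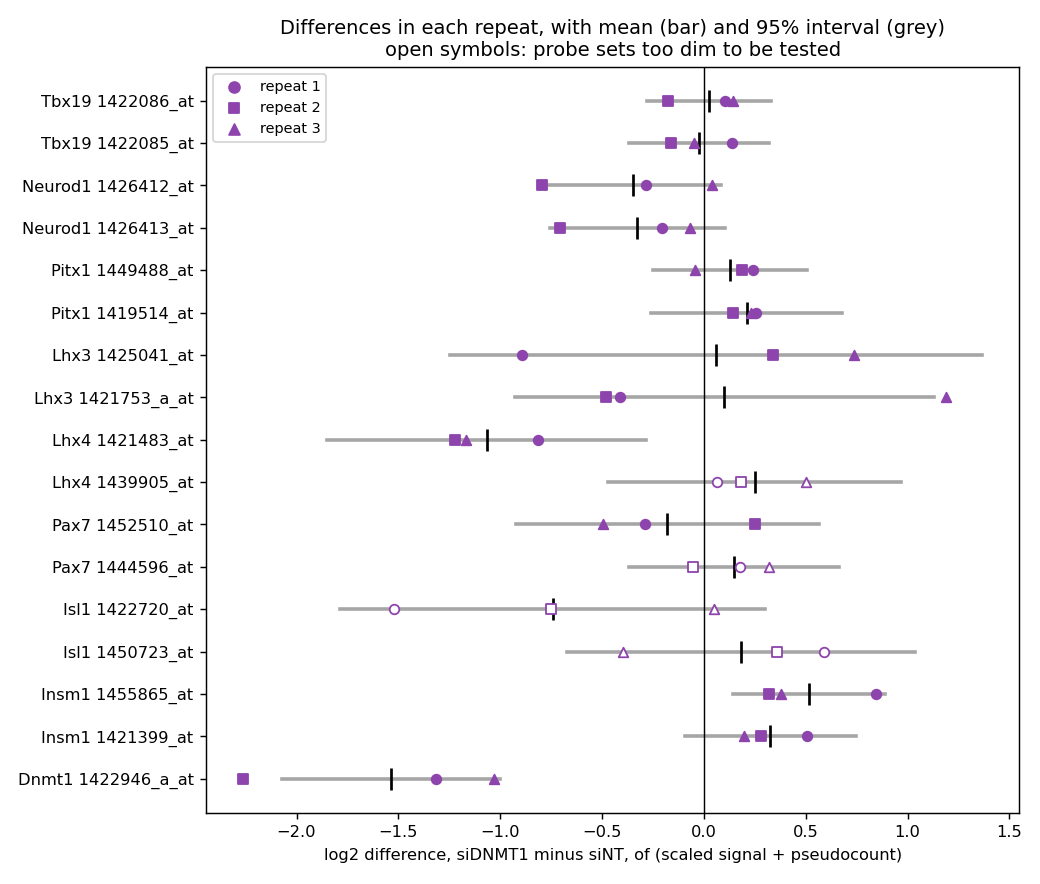
Log2 difference, siDNMT1 minus siNT, in each repeat (symbols), with the mean of the 3 repeats (black bar) and its 95% interval from limma without the block (grey), for the 16 probe sets and for Dnmt1. Open symbols are probe sets too dim to be tested, for which the interval comes from the fit without a filter. The intervals of the brighter Insm1 and Lhx4 probe sets and of Dnmt1 do not reach 0.

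Tbx19, the factor that defines the lineage, differed little between the groups. On 1422086_at the scaled signal was 1476, 1437 and 1669.7 with siDNMT1 in repeats 1 to 3 and 1375, 1626 and 1511 with siNT. The siDNMT1 array was higher in repeats 1 and 3 and lower in repeat 2, and the groups overlapped. The log2 difference was 0.02 (SE 0.14), with a 95% interval of -0.28 to 0.33 and a limma adjusted p of 0.9997. On 1422085_at the signal was 1134, 1017 and 1287 with siDNMT1 and 1030.2, 1136 and 1330.4 with siNT. Its difference was -0.02 (SE 0.16, 95% interval -0.37 to 0.32), and it turned to 0.04 with trimmed mean scaling, 0.05 with quantile scaling and 0.01 without scaling. Single arrays also set the sign, since 1422086_at was at -0.04 without siDNMT1 array 3 or siNT array 1, and 1422085_at at 0.06 without siDNMT1 array 2 and 0.08 without siNT array 3. The intervals of both probe sets leave out a change by a log2 of 0.4 in either direction. With the repeat as a block the intervals were -0.21 to 0.25 and -0.26 to 0.21.

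Pitx1, the homeodomain partner of Tbx19, had slightly higher values with siDNMT1. On 1449488_at the scaled signal was 195, 202 and 166 with siDNMT1 and 164, 177 and 171 with siNT. It was higher in repeats 1 and 2 and lower in repeat 3, with a log2 difference of 0.13 (SE 0.17, 95% interval -0.25 to 0.51). The dimmer 1419514_at read 68.6, 55.8 and 57.8 against 56.5, 50.1 and 48.4, higher in 3 of 3 repeats by 0.26, 0.14 and 0.23. The groups still overlapped on it, because control array 1 was above knockdown array 2, and the mean difference was 0.21 (SE 0.21, limma adjusted p = 0.9997). Over all alternatives the 2 probe sets stayed between 0.07 and 0.27.

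Neurod1, the helix-loop-helix factor, had lower values with siDNMT1, mostly in repeat 2. On 1426412_at the scaled signal was 198, 181 and 211 with siDNMT1 and 243, 319 and 206 with siNT. The knockdown arrays lay close together and the controls were spread, so that the differences were -0.29, -0.80 and 0.04 in repeats 1 to 3. On 1426413_at the signal was 149.8, 151 and 162 against 174, 249 and 170.0, and here the groups did not overlap. The mean differences were -0.35 (SE 0.20, 95% interval -0.78 to 0.08) and -0.33 (SE 0.20, 95% interval -0.76 to 0.10), with a limma adjusted p of 0.9997 for both and of 0.673 and 0.692 with the block. Without control array 2, which had the highest signal of all on both probe sets, the difference of 1426412_at was -0.18 and that of 1426413_at -0.15, and without repeat 2 in the fit with the block the latter was -0.14.

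Insm1, the endocrine zinc finger factor, had the smallest p of the 8 genes, with higher values in the knockdown on both probe sets and in all repeats. On 1455865_at the scaled signal was 2320.0, 2481 and 2438 with siDNMT1 and 1288, 1988 and 1874 with siNT. The lowest knockdown array was above the highest control, and the knockdown arrays agreed more closely with each other (SD 83.2) than the controls did (SD 376). The difference was 0.85, 0.32 and 0.38 in repeats 1 to 3, a mean of 0.51 (SE 0.17, 95% interval 0.14 to 0.89) or 1.43-fold. The limma adjusted p was 0.9997 without the block (0.0113 before adjustment) and 0.197 with it (0.000839 before adjustment), so the difference did not pass the threshold.

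The second Insm1 probe set, 1421399_at, gave 694, 925 and 755 with siDNMT1 against 487, 762 and 659 with siNT. The pairs differed by 0.51, 0.28 and 0.20, while the groups overlapped, since the repeats themselves differed in signal. The mean difference was 0.33 (SE 0.19, 95% interval -0.10 to 0.75), and the interval with the block was 0.07 to 0.59. The size depends on repeat 1, whose control array was the lowest: without that array the difference of 1455865_at was 0.32, and that of 1421399_at 0.15, by limma without the block. In the fit with the block, leaving out repeat 2 gave 0.61 with a limma adjusted p of 0.0435. It was the only alternative in which a factor gene passed. Leaving out repeat 1 gave 0.35 with a limma adjusted p of 0.602. Each of these fits holds only 2 pairs, so its p rests mostly on the spread borrowed from other probe sets. At deposited signals of 2000 to 4000, which hold the mean of 1455865_at, repeat 2 exceeded the other repeats by a median log2 of 0.61, against 0.87 at 200 to 500. Bright signals are thus compressed in repeat 2, and their part in the Insm1 difference was not tested.

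Lhx4, a LIM-homeodomain factor of the early pituitary, had the largest difference, on a dim probe set. On 1421483_at the scaled signal was 21.1, 10.6 and 10.8 with siDNMT1 and 41.1, 31.7 and 31.0 with siNT. All knockdown arrays were below all controls, at 51.4%, 33.4% and 35.0% of the paired control. The log2 differences were -0.81, -1.22 and -1.17, with a mean of -1.07 (SE 0.36, 95% interval -1.85 to -0.28). The limma adjusted p was 0.9997 without the block (0.0120 before adjustment) and 0.471 with it. The probe set reached the limit for testing through its control arrays, since the knockdown mean was 14.2 and the control mean 34.6, and a probe set that passes in this way had to differ. The difference was -0.67 with 4 times the pseudocount and -1.27 with 0.25 times, and it ran from -1.31 to -0.94 with 1 array left out.

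The other Lhx4 probe set went the opposite way. On 1439905_at, below the limit, the signal was 6.94, 9.80 and 12.0 with siDNMT1 and 6.40, 8.02 and 6.91 with siNT. It was higher in 3 of 3 repeats, by 0.06, 0.18 and 0.50, with a mean of 0.25 (SE 0.32, 95% interval -0.47 to 0.97). The sources used here do not say which part of the transcript each probe set reads. The direction for Lhx4 therefore rests on 1 of its 2 probe sets.

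Lhx3, the close relative of Lhx4, gave no direction on either probe set. On 1425041_at the scaled signal was 3.35, 19.1 and 41.0 with siDNMT1 and 10.8, 14.0 and 22.5 with siNT, and on 1421753_a_at it was 14.5, 9.58 and 36.4 against 21.0, 15.5 and 12.9. Both reached the limit for testing through the knockdown mean alone. Knockdown array 3 was the highest of the 6 on both, while the other knockdown arrays lay within or below the controls. The mean differences were 0.06 (SE 0.59, 95% interval -1.25 to 1.37) and 0.10 (SE 0.47, 95% interval -0.93 to 1.13). Without knockdown array 3 they were -0.50 and -0.33. The first also turned to -0.04 without knockdown array 2 and -0.12 without control array 1, and the second to -0.02 without control array 3. These intervals are too wide to show either a change or its absence at a log2 of 0.9.

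Pax7, the melanotroph factor, was dim in both groups. On 1452510_at the scaled signal was 21.5, 21.1 and 20.1 with siDNMT1 and 27.5, 16.9 and 30.6 with siNT. The knockdown arrays fell between the lowest and the highest control, with a difference of -0.18 (SE 0.34, 95% interval -0.92 to 0.57). On 1444596_at, which was not tested, all 6 arrays lay between 2.69 and 5.50, and 5 of them were below the pseudocount.

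Isl1, the LIM-homeodomain factor of the early gland, was below the limit for testing on both probe sets. On 1422720_at the scaled signal was 5.46, 5.35 and 3.16 with siDNMT1 and 25.6, 12.6 and 2.87 with siNT. Control arrays 1 and 2 stood above the knockdown arrays, but control array 3 was the lowest of all. The mean difference was -0.74 (SE 0.47, 95% interval -1.78 to 0.30). On 1450723_at it was 0.18 (SE 0.38), from signals of 13.0, 4.44 and 1.37 against 6.88, 2.30 and 3.47. The 2 probe sets thus differ in sign, and of their 12 values 6 were below the pseudocount.

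**Figure D4:**
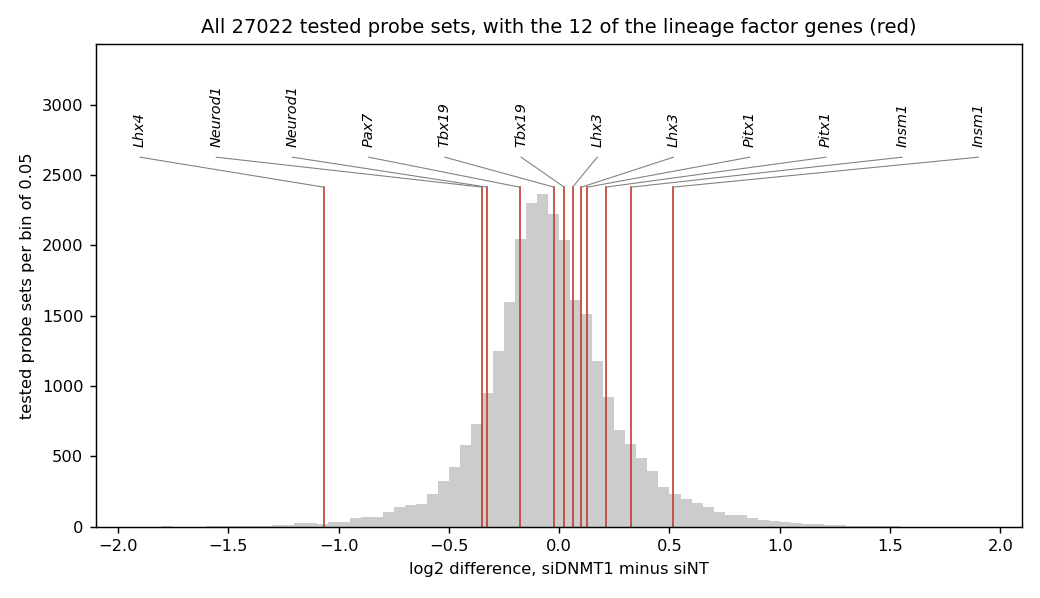
Number of tested probe sets (vertical axis) by log2 difference, siDNMT1 minus siNT, in bins of 0.05 (horizontal axis), for all 27022 tested probe sets. Red lines mark the 12 of the factor genes: most fall within the bulk of the distribution, and Lhx4 at -1.07, which reached the limit through its controls alone, lies outside the range from -0.69 to 0.67 that holds its central 95%.

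In absolute size, the difference of the brighter Insm1 probe set exceeded 90.1% of those of all tested probe sets. The figures were 78.5% and 76.1% for Neurod1 and 7.28% and 7.26% for Tbx19. The median absolute difference was 0.19 over the 12 probe sets and 0.17 over all tested. A dim probe set varies more, so this ranking by size is not one by evidence.

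Relatives of the 8 factors had lower values more often than higher ones, as genes at large did, and none passed the threshold. Of 34 paralogs listed, from the T-box, NeuroD, Pitx, LIM-homeodomain, Insm and Pax families, 32 were on the array and 20 were tested on their brightest probe set. Of these 6 were higher and 14 lower, with a median of -0.09, against -0.06 and a share of 61.0% lower over the 13477 genes tested. Limma called 0 of them in either fit, and an unadjusted p under 0.05 was found for 0 higher genes and 1 lower gene without the block, beside 1.32% and 2.47% of all probe sets. With the block it was found for 0 higher and 2 lower genes, Neurod2 and Pax3, beside 2.45% and 5.39%. Here and in the lists below these shares are over all tested probe sets, while each gene counts once, on its brightest. Insm2, among the 14 lower genes, reached the limit for testing through its controls alone (mean 24.6, against 15.4 with siDNMT1). The gene found in both fits was Neurod2, a neuronal relative of Neurod1, at 73.8, 60.2 and 61.1 with siDNMT1 against 103, 98.7 and 97.0 with siNT. Its groups did not overlap, and the difference was -0.58 (SE 0.19, limma adjusted p = 0.9997, or 0.443 with the block). A second tested Neurod2 probe set was at -0.26 (SE 0.32) with overlapping groups. Pax3, the closest relative of Pax7, was at -0.58 (SE 0.31), Pitx3, of the lens and midbrain, at -0.45 (SE 0.29) and Lhx2 at -0.34 (SE 0.23).

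Partners and co-regulators of the factors were listed next, among them LIM cofactors, E-proteins that pair with Neurod1, orphan nuclear receptors and chromatin proteins that act on Pomc. Of 40 such genes 37 were on the array and 34 were tested. Higher values were found in 14 and lower values in 20, beside 61.0% lower over all genes tested. The median was -0.05, against -0.06 over those genes, and limma called 0 in either fit. An unadjusted p under 0.05 was found for 0 higher and 3 lower genes without the block, beside 1.32% and 2.47% of all probe sets. With the block it was found for 0 higher and 7 lower genes, beside 2.45% and 5.39%. Nr4a3, which is in both lower counts, reached the limit for testing through its controls alone, so these counts are a description.

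The smallest p among them belonged to Nr4a3 and Nr4a1, nuclear receptors of a family that carries the response of Pomc to CRH, the hypothalamic hormone that drives corticotrophs. Nr4a1 was at 353, 418 and 352 with siDNMT1 and 447, 734 and 588 with siNT. The groups did not overlap, and the difference was -0.62 (SE 0.20, limma adjusted p = 0.9997, or 0.185 with the block). Nr4a3 was at 10.2, 12.3 and 8.50 against 24.0, 48.6 and 29.1, a difference of -1.29 (SE 0.39). That probe set reached the limit for testing through its controls alone (mean 33.9, against 10.3 with siDNMT1) and so had to differ, and its other tested probe set was at -0.01 (SE 0.38). The third member of the family, Nr4a2, was at 0.05 (SE 0.19). Hes1, a Notch target and repressor, was at -0.51 (SE 0.21). Rlim, a ubiquitin ligase that acts on LIM cofactors, was at -0.38 (SE 0.19), and its 3 other tested probe sets were at -0.63, -0.33 and 0.41. The LIM cofactor genes Ldb1 and Ldb2, which bridge Lhx3, Lhx4 and Isl1 into complexes, were at 0.17 (SE 0.20) and 0.03 (SE 0.34).

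Genes downstream of the factors, from POMC processing to the hormones of other lineages, were the third list. Of 30 genes 25 were on the array and 20 were tested. Of these 5 were higher and 15 lower, beside 61.0% lower over all genes tested, with a median of -0.14, and limma called 0 in either fit. Prl, among the lower, reached the limit for testing through its controls alone. Ins2, among the higher, reached it through the knockdown alone (mean 19.6, against 14.9 with siNT). An unadjusted p under 0.05 was found for 0 higher and 1 lower gene without the block, beside 1.32% and 2.47% of all probe sets. With the block it was found for 0 higher and 4 lower genes, beside 2.45% and 5.39%.

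Pomc, the shared target of Tbx19, Pitx1 and Neurod1, was at 10470.0, 5576 and 9282 with siDNMT1 and 10538, 6958 and 10191 with siNT on its brightest probe set. Repeat 2 was the lowest in both groups, in the range where bright signals are compressed, and the groups overlapped. The difference was -0.15 (SE 0.23), with -0.01, -0.32 and -0.13 in repeats 1 to 3, and its other probe set was at -0.15 (SE 0.25). Both were lower in 3 of 3 repeats, as were 19.2% of all tested probe sets. With the repeat as a block the SE was 0.081 and 0.077, and the 95% intervals were -0.33 to 0.02 and -0.32 to 0.02. Without siDNMT1 array 2 the difference of the brightest was 0.12. Ptprn, a membrane protein of secretory granules, was at 585, 444 and 455 against 638, 783 and 656, without overlap, a difference of -0.49 (SE 0.17, limma adjusted p = 0.9997, or 0.396 with the block). Crhr1, the receptor through which CRH acts, was at -0.36 (SE 0.20) with 118, 161 and 123 against 189, 178 and 151. Its dimmer probe set read 111, 111 and 76.1 against 189.8, 250.1 and 115, without overlap, with a difference of -0.82 (SE 0.28, limma adjusted p = 0.175 with the block). The granule protein gene Scg2 was at -0.28 (SE 0.16). Prl, the hormone of another lineage, was at -0.91 (SE 0.45), from signals of 8.26 to 24.2 with siDNMT1 and 20.8 to 46.5 with siNT that overlapped. It too reached the limit through its controls alone, with a mean of 30.1 against 13.8.

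**Figure D5:**
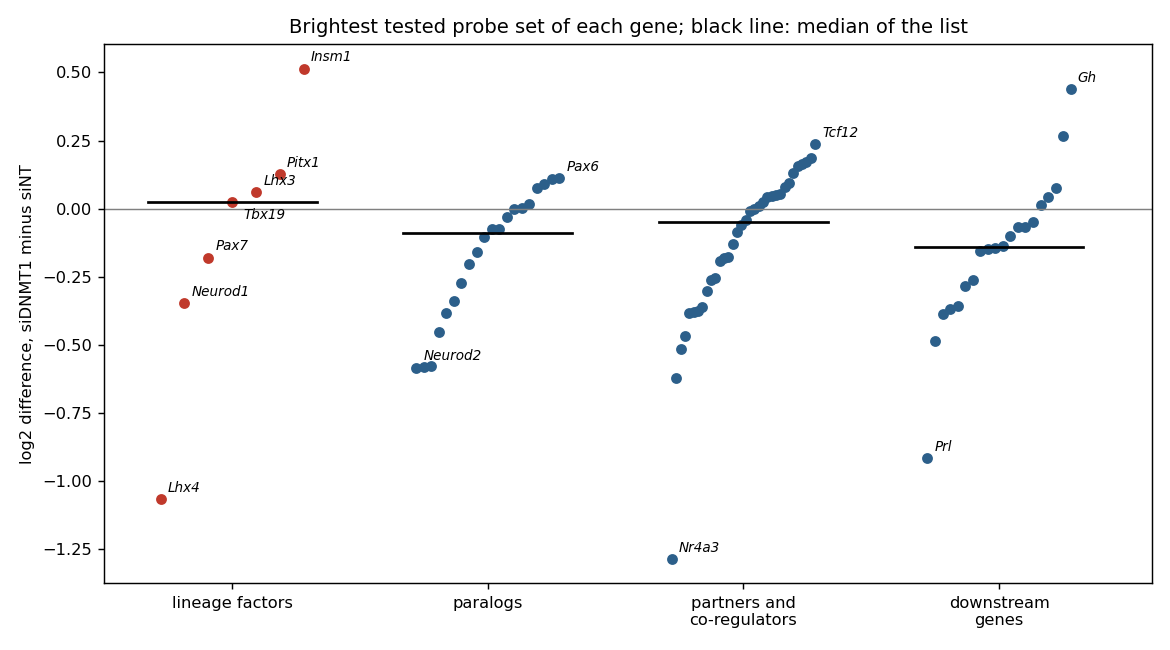
Log2 difference, siDNMT1 minus siNT (vertical axis), of the brightest tested probe set of each gene, ordered within 4 lists: the 7 factor genes with a tested probe set, 20 paralogs, 34 partners and co-regulators and 20 downstream genes. Black lines are the medians, 0.02, -0.09, -0.05 and -0.14, all factor genes are named, and in the other lists those with the lowest and highest difference.

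The array profiles most like those of the 3 factors of the Pomc promoter were then looked up. Likeness was the root mean square difference between the log2 values of 2 probe sets over the 6 arrays, each centred on its own mean, among 22817 tested probe sets of other genes with 1 symbol. For Tbx19 the nearest were Cog3 at 0.025, Gpn2 at 0.026 and Ckmt1 at 0.030, with a median of 0.276 over all candidates. These are genes that, like Tbx19, differed little, by 0.03 in the mean. For Neurod1 they were Nupr1 at 0.034, Cbl at 0.044 and Irs1 at 0.058, which share its large difference in repeat 2 (-0.72, -0.80 and -0.70) and its small one in repeat 3. For Pitx1 they were Cryab at 0.035, Lsm12 at 0.036 and Boc at 0.039. With 6 arrays and so many candidates close profiles are bound to be found, and the arrays share their scaling.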

How the data were processed

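Per the labels, total RNA of 6 AtT-20 cultures was biotin-labelled and hybridised to 1 Affymetrix mouse array each. The deposited values are intensities, 1 per probe set and array, made with GCOS per the submitters' processing notes. For GCOS no version and no scaling target, and for the probe sets no detection calls, were given in the sources used here. Deposited medians were 19.8 to 36.3, so arrays were scaled to 1 median log2 value (R 4.3.3). The pseudocount of 5.29 is the 20th percentile of the deposited table, and the limit for testing, 16.8, the 40th percentile of mean scaled signals. It left out 18015 of 45037 probe sets. Symbols came from the platform annotation, of which 34945 probe sets had 1, 932 several and 9160 none, and a RefSeq gene table changed 0 of them.

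siDNMT1 was compared with siNT by limma 3.58.1 (lmFit, eBayes with a trend, two-sided) with p-values adjusted after Benjamini and Hochberg over the 27022 tested probe sets, a threshold of 0.05, and a check on simulated data. The main fit had no block. Across probe sets, the deviations from the group mean of the 2 arrays of a repeat had correlations of 0.173, 0.231 and 0.257, so the numbers pair the arrays, and the labels describe separate repeats. Blocked values stand where they change a call, beside the leading differences and for Tbx19 and Pomc. An exact permutation test of 3 arrays against 3 cannot go below a two-sided p of 0.1. No 2 arrays were identical. Alternatives were the block, 3 other scalings, 2 pseudocounts, no filter and a stricter one, no trend, no cross-hybridising probe sets and leaving out each array or repeat. The named genes were all probe sets of the 8 factors, Dnmt1, Pomc and, of each list, the 4 genes with the smallest p or any past the threshold, with the 3 nearest profiles of Tbx19, Neurod1 and Pitx1. Other probe sets of these genes, and Ldb1, Ldb2 and Nr4a2, were added after their values were seen. The members and lists were chosen with earlier results of these data known.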

Additional observations from a re-analysis of the deposited data

How the results depend on the processing

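Of the tested probe sets of the factor genes, those of Neurod1, Pitx1, Insm1, Lhx4 and Pax7 kept their direction under every alternative that gave a value, and those of Tbx19 and Lhx3 did not. With the replicate block the difference of Dnmt1, -1.54, passed the threshold (limma adjusted p = 0.0211). It also passed in the replicate block fits without repeats 1, 2 or 3 (-1.645, -1.17 and -1.79), which hold only 2 pairs each. With 1 array left out and no block it ran from -1.79 to -1.26 and passed without siDNMT1 array 3. No factor probe set passed with the replicate block, while 1, of Insm1, passed when repeat 2 was left out of that fit and 2 pairs remained. With 1 array left out the median of the factor probe sets ran from -0.13 to 0.073. Tbx19 1422085_at was at 0.039 with trimmed mean scaling, 0.049 with quantile scaling, 0.0061 without scaling, 0.045 with the replicate block without repeat 2, and -0.11 to 0.076 with 1 array left out. Tbx19 1422086_at was at -0.016 and -0.037 with the replicate block without repeats 1 and 3, and -0.042 to 0.081 with 1 array left out. Lhx3 1425041_at was at -0.042 with 0.25 times the pseudocount, -0.078 and -0.28 with the replicate block without repeats 2 and 3, and -0.50 to 0.71 with 1 array left out. Lhx3 1421753_a_at was at -0.45 with the replicate block without repeat 3, and -0.33 to 0.42 with 1 array left out. Pomc ran from -0.35 to 0.12 with 1 array left out. The cause of these changes was not tested. The 3 lists had 0 genes past the threshold under all alternatives, and among the factor probe sets, Pomc, Dnmt1 and the lists the replicate block over all repeats changed the call of Dnmt1 alone. Over all tested probe sets it called 23, against 0 without it. Low signal limits what Lhx3, Pax7, Isl1 and the dimmer Lhx4 probe set can show.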
